A study of Mus musculus with 60 samples.

Results

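The comparison described here sets the hippocampus of mice 6 wk after injection of melanoma cells labelled as cachectic (CAC6wk, 5 libraries) against that of mock-injected mice at the same time (Con6wk, 5 libraries). These 10 libraries, chosen by their column names, are part of a series of 60 that also holds melanoma cells labelled as non-cachectic (NCAC6wk, 4 libraries) and the same groups at 2, 4 and 8 wk. All animals were female and aged 2 months per the labels. On the strain the labels conflict and were not reconciled, with C57BL6/J given for each sample and NCI Ath/nude in the overall design, and the extract protocol names a further tumour line that matches no group here. The labels name no melanoma line and give no body weight, so whether each CAC6wk animal was wasting could not be checked, and the libraries are called biological replicates without a statement that each came from a different mouse. If some were not, the p-values measure only the spread between these samples.

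Cachexia is the loss of muscle and fat that accompanies many cancers, and it is driven by circulating cytokines, stress hormones and altered fuel use. In the brain such signals first meet the endothelium of the blood vessels and the astrocytes whose endfeet wrap them. The hippocampus is rich in glucocorticoid receptors, and its vessels, astrocytes and stem cell niche respond to stress hormones and to cytokines of the interleukin 6 family, which act through the transcription factor STAT3.

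Values are TPM, a transcript level scaled by gene length and library total, and differences are CAC6wk minus Con6wk on the log2(TPM + 0.5) scale with their standard error (SE) from limma. A gene was called when its adjusted p was under 0.05 over the 15608 tested genes. The depth recovered from the TPM steps was 36205388 to 38095210 reads in the 10 libraries. Hippocampal markers were present at like levels in both groups: 9 CA1 markers summed to 757 to 1000 TPM in CAC6wk and 905 to 1030 in Con6wk, and 8 dentate granule neuron markers to 288 to 363 and 275 to 323. The 9 melanocyte markers summed to only 1.41 to 2.18 TPM in CAC6wk and 1.23 to 2.36 in Con6wk. Genes of the choroid plexus, which adjoins the hippocampus, varied between libraries of both groups: the 15 markers summed to 391 to 8840 TPM in CAC6wk and 204 to 4420 in Con6wk. All 15 had positive differences, with a median of 1.28, and none was called. The values over all tested genes were 55.2% positive and a median of 0.02. Between NCAC6wk and Con6wk the median of the 15 was 1.26. These markers were high in replicates 2 and 3 of CAC6wk and 1 and 2 of Con6wk, and in replicate 5 of CAC6wk Folr1, Kl, Aqp1, Otx2, Kcnj13 and Clic6 were high while Ttr was low. Their part in the results was not tested. Without these 5 libraries 39 genes were higher and 66 lower, against 28 and 11 with all 10, and 16 of the original genes were called again. All 39 original genes had the same sign, which could not change for the 35 whose groups did not overlap.

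In all, 39 genes were called. In CAC6wk, 28 were higher (0.179% of the tested genes) and 11 lower (0.0705%), and 13 differed by over 2-fold, 12 of them higher. The genes that rose included an astrocyte enzyme, targets of glucocorticoids, components and targets of interleukin 6 signalling, and endothelial genes of activated vessels. Those that fell included an arterial endothelial gene, the angiogenic ligands Vegfa and Apln, and the growth factor Ptn. CAC6wk and Con6wk libraries did not overlap for 35 of the 39 genes (the exceptions were C4b, Prkg1, Wnt10b and Zfand4_1), while 2.62% of all tested genes showed no overlap between the groups. Since the calls and the lack of overlap come from the same values, that count only describes the called genes. Leaving out 1 library at a time gave 7 to 52 higher and 2 to 33 lower genes, the fewest without replicate 1 of CAC6wk and the most without replicate 3 of CAC6wk. Of the 39 genes, 9, 12, 38, 17 and 20 were called again without CAC6wk replicates 1 to 5, and 33, 19, 15, 16 and 19 without Con6wk replicates 1 to 5. All kept their sign, which leaving out libraries could not change for the 35 genes without overlap. Of the 39 genes, 3 passed in every such fit, 10 in at least 8 of the 10, and 14 in at most 3. With only the 2 groups in the fit 16 of the 39 were called again, and with no filter on low values 26. With the GC content and length trends of each library removed, 53 genes were higher and 57 lower, among them 38 of the 39.

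**Figure D1:**
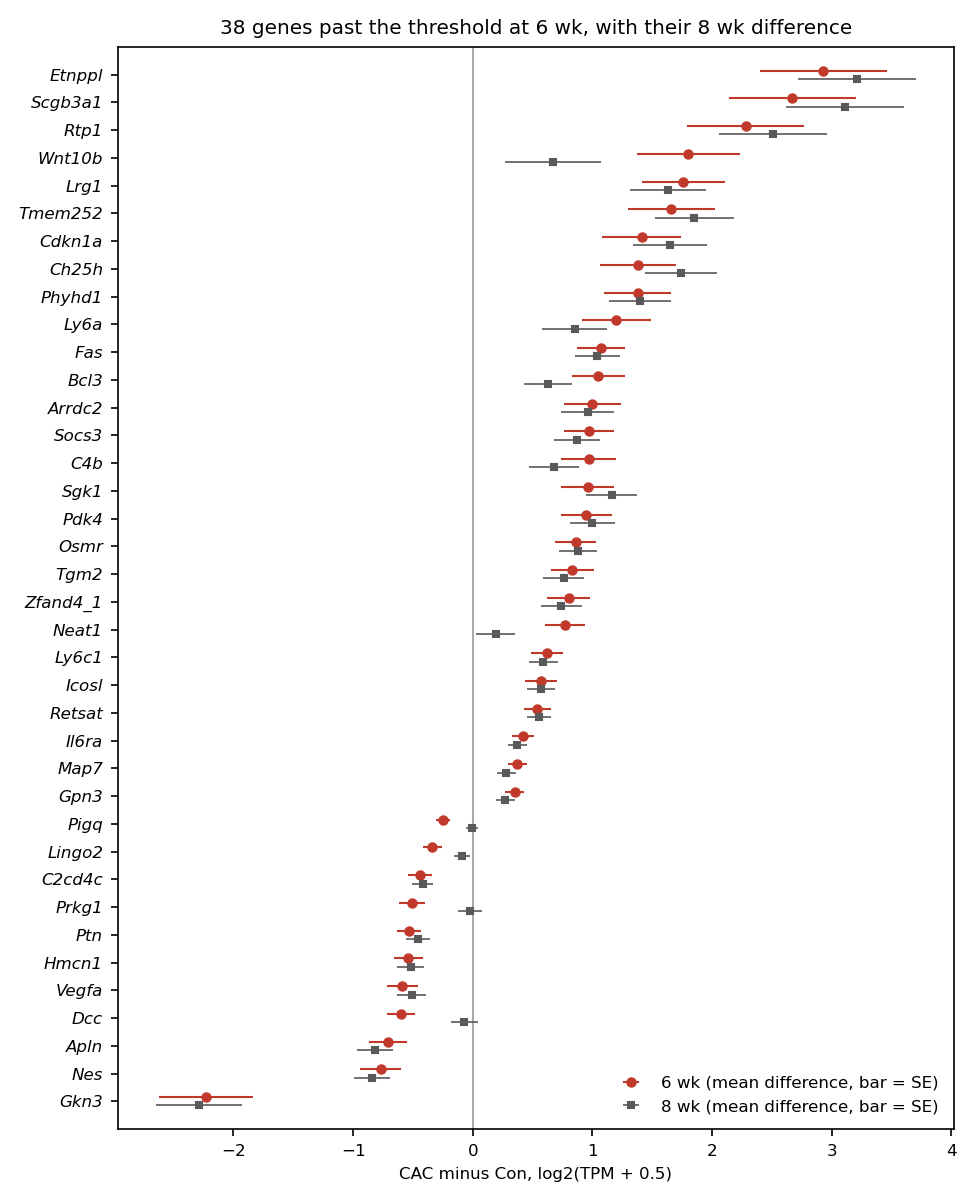
Difference between CAC and Con in log2(TPM + 0.5) for 38 of the 39 genes called at 6 wk (red circles) and the same genes at 8 wk (grey squares), with bars for the SE. Etnppl has the highest 6 wk difference at 2.93 and Gkn3 the lowest at -2.23, and Dcc, Prkg1 and Pigq lie near 0 at 8 wk.

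Etnppl, the enzyme that breaks down phosphoethanolamine and is expressed in the brain mainly by astrocytes, showed the largest rise. Its TPM in CAC6wk replicates 1 to 5 was 16.8, 13.8, 11.3, 13.9 and 7.75, and in Con6wk 1.42, 1.04, 0.784, 3.12 and 0.479. The lowest CAC6wk library stood above the highest Con6wk library, and behind these values lay 28 to 945 reads. Etnppl rose by 2.93 ± 0.53 (adjusted p = 0.00975), and it remained called in all 10 fits that left out 1 library and under 10 of 10 other settings of the analysis. On GRCm38 the gene lies on chromosome 3 from 130617448 to 130637521 on the plus strand. Of the 12 tested genes of ethanolamine phospholipid metabolism, Etnppl alone was called. The kinase Etnk1, which makes phosphoethanolamine, averaged 130 TPM in CAC6wk and 129 in Con6wk, and Pcyt2, the next enzyme towards phosphatidylethanolamine, averaged 49.2 and 51.9. The median of the 12 differences was 0.01, against 0.02 over all tested genes.

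Further metabolic genes rose by smaller factors. Phyhd1, a relative of the peroxisomal phytanoyl-CoA hydroxylase, held 44.9, 34.6, 27.8, 23.9 and 22.8 TPM in CAC6wk and 13.1, 11.4, 9.98, 12.3 and 9.27 in Con6wk. Every CAC6wk library exceeded every Con6wk library, and the rise was 1.38 ± 0.28 (adjusted p = 0.0115), lost only without replicate 1 of CAC6wk among the fits that left out 1 library (adjusted p = 0.0595). Retsat, which saturates retinol, rose by 0.54 ± 0.11 from a mean of 11.4 to one of 16.8 TPM (adjusted p = 0.0115). Pdk4, the kinase that shuts pyruvate out of the mitochondrial oxidation route during fasting, rose by 0.95 ± 0.21 (adjusted p = 0.0252). Its lowest CAC6wk library had 29.2 TPM and its highest Con6wk library 22.6. Pdk4 was the only one called of 18 fasting and lipid fuel genes. The lipid droplet coat gene Plin4 had the largest difference of that list (2.23 ± 0.70), with means of 37.5 and 7.54 TPM and no overlap of the groups, and did not pass (adjusted p = 0.155). Acot2, a mitochondrial thioesterase, missed the threshold narrowly at a difference of 0.35 ± 0.09 (adjusted p = 0.0521).

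**Figure D2:**
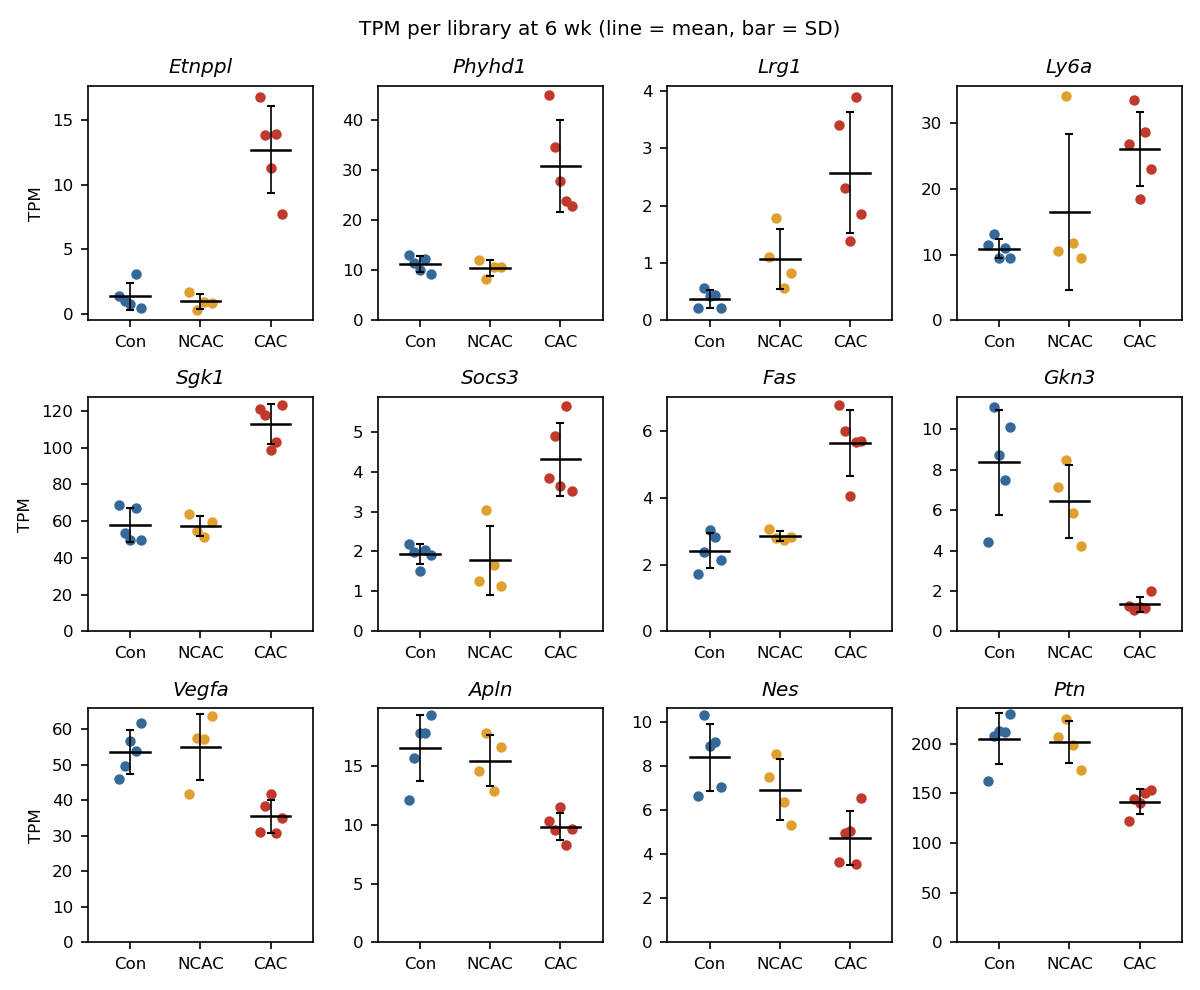
TPM of 12 called genes in each 6 wk library of Con (blue, n = 5), NCAC (yellow, n = 4) and CAC (red, n = 5), with the mean (line) and SD (bar). The CAC libraries do not overlap with the Con libraries in any of the 12 panels, and 1 NCAC library reaches 34.2 TPM for Ly6a.

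Several targets of glucocorticoids rose. Of 27 tested genes of the glucocorticoid response list, 4 rose and 0 fell, 26 differences were positive, and their median was 0.40. Over all tested genes 0.179% were called higher, 55.2% of the differences were positive and the median was 0.02. The list was chosen with earlier results of these data known, so its counts only describe its members. The called members were Sgk1, Pdk4, Cdkn1a and Arrdc2. Sgk1, the serum- and glucocorticoid-inducible kinase, held 121, 118, 98.9, 103 and 123 TPM in CAC6wk and 68.9, 53.5, 49.9, 67.4 and 50 in Con6wk. Its groups were far apart, and the rise was 0.96 ± 0.22 (adjusted p = 0.0375), but it passed in 2 of the 10 fits that left out 1 library (adjusted p up to 0.117) and not with no filter on low values (0.0546). Cdkn1a, the cyclin-dependent kinase inhibitor p21, held 33.2, 18.4, 15, 19.2 and 17.6 TPM in CAC6wk and 5.51, 7.14, 6.93, 9.78 and 7.15 in Con6wk. CAC6wk replicate 1 was well above the others of its group, yet all 5 exceeded every Con6wk library, and Cdkn1a rose by 1.41 ± 0.33 (adjusted p = 0.0402). It passed in 1 of the 10 fits that left out 1 library, with adjusted p up to 0.154. Arrdc2, an arrestin-domain adaptor, averaged 21.5 TPM in CAC6wk and 10.3 in Con6wk and rose by 1.00 ± 0.24 (adjusted p = 0.0421), also in 1 of 10 such fits.

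The uncalled members of the list with the smallest p were the stress kinase Map3k6, the redox protein Txnip and the sulfotransferase Sult1a1. Map3k6 averaged 4.46 TPM in CAC6wk and 1.12 in Con6wk (1.58 ± 0.41, adjusted p = 0.0739), Txnip 49.5 and 31.6 (0.63 ± 0.17, adjusted p = 0.0739), and Sult1a1 44.3 and 18.0 (1.26 ± 0.37, adjusted p = 0.114). Fkbp5, a receptor co-chaperone widely used as a readout of glucocorticoids, averaged 53.6 and 37.1 TPM with no overlap of the groups (0.52 ± 0.19, adjusted p = 0.245). In 11 of the 27 genes the groups did not overlap, each time with CAC6wk higher, where 2.62% of all tested genes showed no overlap in either direction. None of the 8 tested corticosteroid and CRH receptor genes was called. The glucocorticoid receptor Nr3c1 averaged 43.8 TPM in CAC6wk and 49.3 in Con6wk (-0.18 ± 0.09, adjusted p = 0.446), and the mineralocorticoid receptor Nr3c2 102 and 108. Of 15 p53 and cell-cycle arrest genes Cdkn1a alone was called, and Mdm2, a p53 target and its ubiquitin ligase, averaged 40.2 and 37.3 TPM (adjusted p = 0.542). Their differences were positive in 9 and negative in 6, with a median of 0.08, against 55.2% positive and 0.02 over all tested genes. In 3 of the 15 the groups did not overlap, with CAC6wk higher: Cdkn1a, Sesn1 (0.25 ± 0.10, adjusted p = 0.301) and Trp53inp1 (0.26 ± 0.15, adjusted p = 0.501).

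Promoter windows are shown for 4 genes that rose and held a match to a glucocorticoid receptor or STAT motif, of which Sgk1 belongs to the glucocorticoid list and Socs3 to the interleukin 6 list. They run from 250 bases before a transcript start to 50 after it and come from RefSeq on GRCm38.p6, which held windows for 21 of the 28 higher genes and 10 of the 11 lower ones. Capitals mark a match to the 15-base palindrome of the glucocorticoid receptor or to the STAT motif TTCNNNGAA, searched on both strands. For Sgk1, 1 of its 6 windows (chr10:21993640-21993939, plus strand) held the first motif, and single windows of Socs3 (chr11:117969317-117969616, minus strand), Fas (chr19:34290409-34290708, plus strand) and Phyhd1 (chr2:30265953-30266252, plus strand) held the second.
Sgk1: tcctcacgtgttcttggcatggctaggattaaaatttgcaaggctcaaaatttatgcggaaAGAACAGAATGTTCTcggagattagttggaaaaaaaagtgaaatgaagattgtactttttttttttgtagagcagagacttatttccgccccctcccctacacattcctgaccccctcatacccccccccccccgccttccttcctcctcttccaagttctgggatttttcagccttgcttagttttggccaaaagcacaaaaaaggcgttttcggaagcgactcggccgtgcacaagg
Socs3: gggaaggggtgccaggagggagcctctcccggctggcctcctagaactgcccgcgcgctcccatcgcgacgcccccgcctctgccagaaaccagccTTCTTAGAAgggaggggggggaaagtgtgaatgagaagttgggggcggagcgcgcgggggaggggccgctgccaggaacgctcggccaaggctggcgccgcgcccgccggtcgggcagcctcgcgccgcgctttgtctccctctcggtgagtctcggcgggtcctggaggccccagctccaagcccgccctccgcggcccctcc
Fas: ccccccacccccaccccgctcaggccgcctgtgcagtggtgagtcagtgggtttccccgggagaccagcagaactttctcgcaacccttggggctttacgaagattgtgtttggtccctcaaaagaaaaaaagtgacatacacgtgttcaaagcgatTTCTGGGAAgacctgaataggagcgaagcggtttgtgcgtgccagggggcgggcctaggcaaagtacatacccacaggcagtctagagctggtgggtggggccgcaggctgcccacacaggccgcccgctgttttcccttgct
Phyhd1: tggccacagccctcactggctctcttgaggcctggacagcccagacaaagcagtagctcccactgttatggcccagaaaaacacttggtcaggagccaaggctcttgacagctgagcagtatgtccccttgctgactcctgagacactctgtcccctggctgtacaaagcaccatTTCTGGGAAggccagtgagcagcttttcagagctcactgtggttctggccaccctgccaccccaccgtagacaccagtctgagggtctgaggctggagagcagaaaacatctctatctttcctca
The first capital base lies at position -189 of the Sgk1 window, -154 of Socs3, -93 of Fas and -75 of Phyhd1, counted from the transcript start. The glucocorticoid receptor palindrome was found in 3 of all 32851 windows of this length (0.00913%), in 1 of the 31 windows of higher genes and in 0 of the 14 of lower genes. The STAT motif was found in 8.3% of all windows, in 5 of the 31 of higher genes (Fas, Phyhd1, Scgb3a1, Sgk1 and Socs3, with Sgk1 in another window than the one shown) and in 0 of the 14 of lower genes. Of the 6 called genes of the interleukin 6 list Socs3 alone held it, and the windows of Osmr, Lrg1, Bcl3, Il6ra and Ch25h had no match. The hypoxia factor core ACGTG occurred in 19.6% of all windows, 4 of the 31 and 1 of the 14 (Vegfa), and the E-box CACGTG, which contains that core, in 7.15%, 3 and 0. A match is a description of these letters only.

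Some components and targets of interleukin 6 signalling also rose. Of 24 tested genes of the list 6 were higher and 0 lower, 23 of the differences were positive, and the median was 0.37. The values over all tested genes were 0.179% called higher, 55.2% positive and a median of 0.02. This list too was chosen with earlier results of these data known, so its counts are a description only. On the receptor side were Osmr, the oncostatin M receptor, and Il6ra, the ligand-binding chain for interleukin 6. Osmr held 3.37, 5.82, 3.82, 4.14 and 3.68 TPM in CAC6wk and 2.43, 2.18, 2.23, 1.59 and 1.8 in Con6wk. All CAC6wk libraries were above all Con6wk libraries, by 0.86 ± 0.17 (adjusted p = 0.0115), and the call was lost only without replicate 2 of CAC6wk (adjusted p = 0.0553) among the fits that left out 1 library. Il6ra averaged 6.06 and 4.41 TPM and rose by 0.42 ± 0.09 (adjusted p = 0.0245).

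Downstream, Socs3, the feedback inhibitor induced by STAT3, held 3.85, 4.89, 3.65, 5.63 and 3.52 TPM in CAC6wk and 2.19, 1.98, 1.52, 2.04 and 1.92 in Con6wk, again without overlap (0.97 ± 0.21, adjusted p = 0.0232). Bcl3, an atypical inhibitor of the NF-kappaB family, held 1.07, 1.56, 0.718, 0.867 and 0.697 TPM in CAC6wk and 0.393, 0.155, 0.116, 0.0809 and 0.304 in Con6wk. These values rest on 2 to 42 reads a library, and the rise was 1.05 ± 0.22 (adjusted p = 0.0161). Ch25h, which makes the immune oxysterol 25-hydroxycholesterol, held 3.84, 2.86, 1.94, 4.62 and 0.995 TPM against 0.937, 0.637, 0.638, 0.519 and 0.696. CAC6wk replicate 5 lay only just above Con6wk replicate 1, the rise was 1.38 ± 0.32 (adjusted p = 0.0375), and it passed in 3 of 10 fits that left out 1 library. Stat3 itself averaged 24.0 TPM in CAC6wk and 18.8 in Con6wk without overlap (0.34 ± 0.09, adjusted p = 0.0759), and Lcn2, the iron-binding lipocalin of the acute phase, 1.5 and 0.279 (1.29 ± 0.34, adjusted p = 0.0759).

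Of 18 reactive astrocyte genes Osmr alone was called, and it also belongs to the interleukin 6 list. The reactive astrocyte median was 0.31, with 15 differences positive and 3 negative. The values over all tested genes were 0.179% called higher, 55.2% positive and a median of 0.02. The intermediate filament gene Gfap averaged 455 TPM in CAC6wk and 332 in Con6wk (0.41 ± 0.16, adjusted p = 0.268), and Aspg, an asparaginase, had a difference of 0.89 ± 0.22 (adjusted p = 0.0522). Of 15 complement genes C4b alone was called, at 62.8, 131, 112, 93.9 and 89.4 TPM in CAC6wk and 69.4, 69, 55.9, 26.1 and 37.2 in Con6wk. The lowest CAC6wk library lay within the Con6wk range, and the rise was 0.97 ± 0.23 (adjusted p = 0.0375). It passed in 3 of the 10 fits that left out 1 library (adjusted p up to 0.165) and was lost with only the groups compared and with no filter on low values (up to 0.221). C4b has a near-identical neighbour, C4a, with which it can exchange reads, and C4a averaged 5.36 and 3.85 TPM (0.45 ± 0.17, adjusted p = 0.247). The complement median was 0.28, with 14 of 15 differences positive, against 0.02 and 55.2% over all tested genes. Microglial lists held no called gene: the 13 homeostatic genes had a median of 0.01 and the 15 activation genes one of 0.06.

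**Figure D3:**
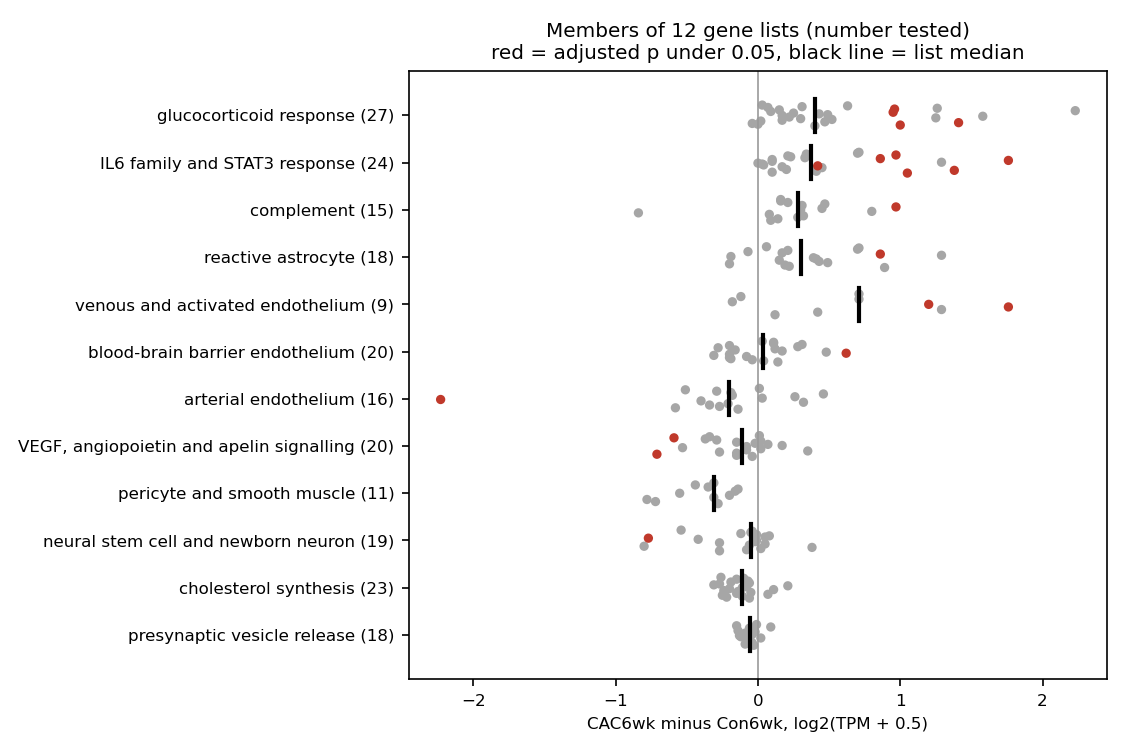
Difference CAC6wk minus Con6wk in log2(TPM + 0.5) of each tested member of 12 gene lists, with called members in red and the list median as a black line. The medians of the glucocorticoid, interleukin 6 and activated endothelium lists lie at 0.40, 0.37 and 0.71, and that of the pericyte list at -0.31.

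Some endothelial genes fell and others rose. Gkn3, a gastrokine family gene expressed in brain arteries, held 1.26, 1.07, 1.22, 1.14 and 2.02 TPM in CAC6wk and 4.43, 11.1, 8.72, 7.49 and 10.1 in Con6wk. The highest CAC6wk library had less than the lowest Con6wk library, on 10 to 99 reads a library. Gkn3 fell by 2.23 ± 0.39 (adjusted p = 0.00721), the smallest adjusted p of the comparison, and stayed called in all 10 fits that left out 1 library and under 10 of 10 other settings of the analysis. It lies on chromosome 6 from 87383256 to 87388935 on the minus strand (GRCm38). Of the 16 arterial endothelial genes tested Gkn3 was the only one called, and the median was -0.20. Their differences were negative in 11 and positive in 5, up to 0.46. The values over all tested genes were 0.0705% called lower, 55.2% positive and a median of 0.02. The chemokine Cxcl12 averaged 25.2 TPM in CAC6wk and 37.7 in Con6wk (-0.58 ± 0.15, adjusted p = 0.0739), and the gap junction gene Gja4 4.38 and 5.90 (-0.40 ± 0.18, adjusted p = 0.34). In whole tissue, fewer cells of a type and less RNA per cell cannot be told apart.

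Among 9 tested genes of venous and activated endothelium 2 rose and 0 fell, with a median of 0.71. Over all tested genes 0.179% were called higher and the median was 0.02. Lrg1, Lcn2 and Icam1 also belong to the interleukin 6 list, so the lists are not independent. Lrg1, a secreted glycoprotein of activated venules, held 3.4, 2.31, 1.39, 3.9 and 1.85 TPM in CAC6wk and 0.216, 0.566, 0.425, 0.445 and 0.209 in Con6wk. There was no overlap, on 3 to 54 reads a library, and the rise was 1.76 ± 0.35 (adjusted p = 0.0115). It was lost only without replicate 1 of CAC6wk among the fits that left out 1 library (adjusted p = 0.0579), and with voom on recovered reads (adjusted p = 0.0552). Ly6a, the surface antigen Sca-1, held 26.8, 33.5, 18.5, 28.7 and 23 TPM in CAC6wk against 11.5, 13.1, 9.53, 11 and 9.52, without overlap (1.2 ± 0.29, adjusted p = 0.0444). It passed in 2 of the 10 fits that left out 1 library, with adjusted p up to 0.139. Ly6a, like Ly6c1, belongs to a family of similar genes that may share reads. Slc38a5, an amino acid transporter, averaged 8.59 and 5.06 TPM without overlap (0.71 ± 0.20, adjusted p = 0.11), and Vwf, the von Willebrand factor, 9.53 and 5.80 (0.71 ± 0.26, adjusted p = 0.233).

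Among 20 genes of the blood-brain barrier endothelium only Ly6c1 was called. It averaged 72.4 TPM in CAC6wk and 46.1 in Con6wk and rose by 0.62 ± 0.13 (adjusted p = 0.0161), with no CAC6wk library under 56.4 and no Con6wk library above 47.0. The tight junction gene Cldn5 averaged 25 and 28.9 TPM (adjusted p = 0.745), and the lipid transporter Mfsd2a 51.2 and 36.7 without overlap (0.48 ± 0.23, adjusted p = 0.385). The summed level of the 20 genes was 1320 to 1560 TPM in CAC6wk and 1350 to 1400 in Con6wk. Tgm2, the tissue transglutaminase, rose by 0.83 ± 0.18 to 19.0 TPM from 10.7 (adjusted p = 0.0242).

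Of the angiogenic ligands, Vegfa and Apln fell. Vegfa, which drives endothelial growth and permeability, held 31.2, 38.5, 41.8, 30.7 and 35.1 TPM in CAC6wk and 46, 49.6, 56.8, 53.9 and 61.8 in Con6wk. The groups did not overlap, and Vegfa fell by 0.59 ± 0.13 (adjusted p = 0.0241) and was called under 10 of 10 other settings of the analysis and in 4 of 10 fits that left out 1 library (adjusted p up to 0.0906). Apln, the peptide apelin made by sprouting endothelium, held 10.3, 9.53, 11.5, 8.3 and 9.68 TPM against 12.1, 15.7, 17.8, 17.8 and 19.4. All CAC6wk libraries were below all Con6wk libraries, and Apln fell by 0.71 ± 0.16 (adjusted p = 0.0375), which held in 2 of 10 such fits (adjusted p up to 0.124). These were the 2 called genes of 20 in VEGF, angiopoietin and apelin signalling, whose median was -0.11. The ligands Vegfb (-0.34 ± 0.18, adjusted p = 0.464), Vegfc (0.01), Pgf (0.02), Angpt1 (-0.04) and Angpt2 (-0.15) were not called. The receptors did not pass: the VEGF receptor Kdr averaged 6.31 and 9.01 TPM (-0.53 ± 0.18, adjusted p = 0.186), Flt1 23.0 and 23.9 (adjusted p = 0.817), and Aplnr, the apelin receptor, 0.319 and 0.426 (adjusted p = 0.84). The hypoxia list of 19 genes shares Vegfa and Apln and held no other call, and 13 of its differences were positive. Over all tested genes 0.0705% were called lower, 55.2% of the differences were positive and the median was 0.02.

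All 11 pericyte and smooth muscle genes had negative differences, with a median of -0.31, and none was called. Over all tested genes 55.2% of the differences were positive and the median was 0.02. Between NCAC6wk and Con6wk the median of the pericyte list was -0.19. The pericyte gene Rgs5 averaged 93.7 TPM in CAC6wk and 118 in Con6wk (-0.35 ± 0.13, adjusted p = 0.222), and Acta2, smooth muscle actin, 26.0 and 44.2 (-0.72 ± 0.37, adjusted p = 0.432). Their summed level was 205 to 318 TPM in CAC6wk and 250 to 407 in Con6wk, so the groups overlapped. The 7 erythrocyte markers summed to 310 to 796 TPM in CAC6wk and 426 to 1460 in Con6wk, and the 16 blood leukocyte markers to 17.7 to 25.1 and 23.3 to 65.0. Their part in the vascular differences was not tested. Hmcn1, an extracellular matrix protein, fell by 0.54 ± 0.12 (adjusted p = 0.0245), at 0.71, 1.04, 0.765, 0.607 and 0.846 TPM in CAC6wk and 1.87, 1.09, 1.27, 1.57 and 1.15 in Con6wk. The groups were separate by a narrow margin. Prkg1, the cyclic GMP-dependent kinase that relaxes smooth muscle and also acts in neurons, held 2.61, 2.64, 4.41, 2.81 and 3.26 TPM against 4.75, 4.56, 4.33, 5 and 4.45. CAC6wk replicate 3 lay inside the Con6wk range, and Prkg1 fell by 0.51 ± 0.11 (adjusted p = 0.0232).

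Genes of progenitors, growth and guidance were lower in a few named cases. Nes, the intermediate filament nestin of neural stem cells and young endothelium, held 3.64, 4.96, 5.07, 3.54 and 6.55 TPM in CAC6wk and 6.63, 10.3, 8.91, 9.09 and 7.05 in Con6wk. CAC6wk replicate 5 was just below Con6wk replicate 1, and Nes fell by 0.77 ± 0.17 (adjusted p = 0.0241), in 5 of 10 fits that left out 1 library. It was the only call among 19 neural stem cell and newborn neuron genes. Of these, Fabp7, a lipid chaperone of radial glia, averaged 27.2 and 47.9 TPM without overlap (-0.80 ± 0.29, adjusted p = 0.223), and the proliferation antigen Mki67 0.459 and 0.775 (adjusted p = 0.233). Others were close to level, with differences of 0.02 for Dcx and 0.05 for Neurod1. Of the 19 differences 14 were negative and 5 positive, with a median of -0.05. The values over all tested genes were 0.0705% called lower, 55.2% positive and a median of 0.02. Ptn, the growth factor pleiotrophin, held 122, 144, 140, 150 and 153 TPM in CAC6wk and 162, 208, 213, 212 and 230 in Con6wk. The groups were separate, and Ptn fell by 0.53 ± 0.10 (adjusted p = 0.0115), lost only without replicate 1 of CAC6wk (adjusted p = 0.0595) among such fits. Its receptor Ptprz1 averaged 91.9 and 107 TPM (-0.23 ± 0.08, adjusted p = 0.222), and none of the other 11 genes of pleiotrophin and midkine signalling was called.

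Dcc, the netrin receptor of growing axons, held 4.35, 3.36, 5.26, 4.28 and 4.52 TPM in CAC6wk and 7.32, 6.7, 6.77, 7.15 and 6.04 in Con6wk. There was no overlap, and Dcc fell by 0.60 ± 0.12 (adjusted p = 0.0115), lost only without replicate 2 of CAC6wk (adjusted p = 0.0785) among the fits that left out 1 library. Its ligand Ntn1 averaged 3.91 and 4.21 TPM (adjusted p = 0.782), and none of the other 15 netrin and slit genes was called. C2cd4c, a C2 domain protein, held 5.93, 6.12, 7.25, 7.22 and 6.49 TPM against 7.96, 8.53, 10, 8.93 and 10.2 and fell by 0.44 ± 0.10 (adjusted p = 0.0245). Lingo2, a leucine-rich repeat membrane protein of neurons, held 5.53, 5.42, 5.86, 6.64 and 6.11 TPM against 7.02, 7.89, 7.39, 7.26 and 8.44 and fell by 0.34 ± 0.08 (adjusted p = 0.0314). In both genes the groups were separate, but C2cd4c passed in 4 and Lingo2 in 3 of the 10 fits that left out 1 library. Pigq, a subunit that starts the synthesis of GPI anchors, had the smallest fall at 0.25 ± 0.06 (adjusted p = 0.0375), with 59.5, 56.4, 63.2, 54.5 and 60.5 TPM in CAC6wk and 64.2, 74, 69.8, 69.7 and 73.1 in Con6wk. All CAC6wk libraries of Pigq were below the Con6wk libraries, but it passed in 2 of the 10 such fits (adjusted p up to 0.119). With only the groups compared C2cd4c, Lingo2 and Pigq were not called, and with no filter on low values Lingo2 and Pigq were not.

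Several genes at low levels rose by large factors. Scgb3a1, a small secreted secretoglobin of airway epithelium, held 4.41, 3.22, 3.5, 9.78 and 0.641 TPM in CAC6wk and 0, 0, 0, 0.503 and 0.157 in Con6wk. All CAC6wk libraries were above all Con6wk libraries, but replicate 5 only on 4 reads against 3 in Con6wk replicate 4. The rise on the tested scale was 2.67 ± 0.53 (adjusted p = 0.0115), it depends on the pseudocount because 3 control libraries had no read, and it was lost with voom or with only the groups compared and without replicates 1 or 4 of CAC6wk (adjusted p up to 0.0967). Rtp1, a chaperone that takes odorant receptors to the cell surface, held 6.23, 4.53, 5.39, 7.16 and 4.95 TPM in CAC6wk and 0.53, 0.214, 1.04, 1.51 and 0.844 in Con6wk. These groups were far apart, and Rtp1 rose by 2.28 ± 0.49 (adjusted p = 0.0232), which was lost with voom and with a pseudocount of 0.1 (adjusted p up to 0.0569), and without replicates 1 or 4 of CAC6wk or 2 of Con6wk (up to 0.0855). Wnt10b, a secreted WNT ligand, held 3.94, 5.39, 1.66, 9.94 and 3.49 TPM in CAC6wk and 1.83, 0.819, 0.533, 0.772 and 0.644 in Con6wk. Con6wk replicate 1 lay above CAC6wk replicate 3, and the rise of 1.80 ± 0.43 (adjusted p = 0.0452) was the call nearest to the threshold and passed in 2 of 10 fits that left out 1 library. It was the only call among 30 WNT ligands, receptors and targets, of which the WNT-inactivating enzyme Notum averaged 1.67 and 2.86 TPM without overlap (-0.62 ± 0.16, adjusted p = 0.0654).

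Tmem252, a small membrane protein, held 4.76, 6.75, 4.42, 5.39 and 2.69 TPM in CAC6wk and 1.34, 0.932, 1.44, 0.976 and 0.954 in Con6wk, without overlap (1.66 ± 0.36, adjusted p = 0.0241). Fas, the death receptor CD95, held 6.78, 6.01, 4.06, 5.69 and 5.7 TPM against 1.73, 2.39, 3.03, 2.84 and 2.14. The groups did not overlap, and Fas rose by 1.07 ± 0.20 (adjusted p = 0.0115) and, like Etnppl and Gkn3, passed in all 10 fits that left out 1 library and under 10 of 10 other settings of the analysis, but not without the 5 libraries rich in choroid plexus genes (adjusted p = 0.0622). Other genes that rose were Icosl, a ligand of T-cell costimulation (0.57 ± 0.13), the long non-coding RNA Neat1, which scaffolds nuclear paraspeckles (0.77 ± 0.17), the microtubule-binding Map7 (0.37 ± 0.08), the GTPase Gpn3 (0.35 ± 0.08) and Zfand4_1, an entry whose symbol carries a suffix in the table (0.80 ± 0.18). Neat1 held 171, 315, 220, 169 and 254 TPM in CAC6wk and 150, 127, 92.4, 130 and 152 in Con6wk, where the lowest CAC6wk library was close above the highest Con6wk library. Its difference was 0.47 without the 5 libraries rich in choroid plexus genes (adjusted p = 0.353), and it was called in 5 of the 10 fits that left out 1 library. Without the same 5 libraries the differences of Ch25h and Zfand4_1 were 2.08 and 1.26. The genes called with the largest adjusted p were Arrdc2, Ly6a and Wnt10b, at 0.0421 to 0.0452, and the genes just outside were Cercam (0.44, adjusted p = 0.0518), Cecr6 (-0.27, 0.0521) and Ezr (0.53, 0.0521).

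Lists of neurons and synapses held no call. For the lists below, 55.2% of the differences over all tested genes were positive and their median was 0.02. The 18 presynaptic vesicle release genes had differences of -0.15 to 0.09 and a median of -0.06, the 16 glutamate receptor and scaffold genes a median of -0.03, and the 16 immediate early genes one of -0.02. Of 12 interneuron genes 11 had negative differences, with the peptide Sst at means of 325 and 416 TPM (-0.37 ± 0.25, not called). The 23 cholesterol synthesis genes had a median of -0.11 with 20 differences negative and none called. Of them Hmgcs1, an early enzyme of the pathway, averaged 219 TPM in CAC6wk and 256 in Con6wk (-0.24 ± 0.10, adjusted p = 0.335). Rbm3 and Cirbp, RNA-binding proteins induced by mild cold, differed by 0.46 ± 0.15 and 0.39 ± 0.17 and did not pass (adjusted p = 0.168 and 0.338).

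Non-cachectic tumours at 6 wk were also set against mock injection. NCAC6wk against Con6wk called 0 of 15608 genes in limma, with 587 at an unadjusted p under 0.05. CAC6wk against NCAC6wk called 1.77% of the tested genes. These comparisons share libraries with that of CAC6wk and Con6wk, so values are set side by side only. Etnppl averaged 12.7 TPM in CAC6wk, 0.971 in NCAC6wk and 1.37 in Con6wk, Sgk1 113, 57.3 and 58.0, Vegfa 35.5, 55.1 and 53.6, and Gkn3 1.34, 6.44 and 8.36. The 28 higher genes had a median difference of 0.01 between NCAC6wk and Con6wk, and the 11 lower genes also 0.01. Against NCAC6wk 33 of the 39 genes were called in the same direction, and Lrg1, Bcl3, Ly6a, Nes, Neat1 and Gpn3 were not. Lrg1 averaged 1.07 TPM in NCAC6wk, between 2.57 in CAC6wk and 0.372 in Con6wk. Ly6a reached 34.2 TPM in NCAC6wk replicate 2, above every CAC6wk library, while the other 3 NCAC6wk libraries held 9.47 to 11.8.

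The differences at other times come from separate libraries, although all 60 libraries entered the filter and the shared estimate of the spread behind the 39 calls. At 8 wk, CAC8wk (7 libraries) against Con8wk (5) called 14.5% of the tested genes, 13.3% with the sign they had at 6 wk. All 39 genes had the 6 wk sign at 8 wk, and 33 were called, which is 84.6% of the 6 wk calls and 1.46% of the 8 wk calls. Etnppl had a difference of 3.21 ± 0.49 (adjusted p = 0.000239), Gkn3 of -2.29 ± 0.36 (adjusted p = 0.000239) and Ch25h of 1.74 ± 0.30 (adjusted p = 0.000592). Not called at 8 wk were Dcc, Prkg1, Lingo2, Pigq, Neat1 and Wnt10b.

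Dcc averaged 4.35 ± 0.68 TPM in CAC6wk (SD, n = 5) and 6.79 ± 0.50 in Con6wk (n = 5), but 5.78 ± 0.41 in CAC8wk (n = 7) and 6.10 ± 0.68 in Con8wk (n = 5). Prkg1 averaged 3.15 and 4.62 TPM at 6 wk and 3.93 and 3.99 at 8 wk. The change of the difference between 6 and 8 wk had an unadjusted p of 0.00208 for Dcc and 0.00157 for Prkg1, and also passed 0.05 unadjusted for Pigq, Lingo2 and Neat1. None of these passed adjustment, since over all genes 0 were called for that change (839 at an unadjusted p under 0.05), and the smallest adjusted p among the 39 was 0.812. The 39 genes were also chosen by their 6 wk difference, which by itself favours a smaller difference at 8 wk. Thus an effect limited to 6 wk was not shown for any gene.

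At 4 wk CAC4wk against Con4wk called 0.801% of the tested genes, and of the 39 genes 4 were called, all with the 6 wk sign: Apln (-0.75), Ptn (-0.40), Ly6c1 (0.51) and Bcl3 (0.84). The sign was shared by 37 genes, and the median difference of the 28 higher genes was 0.49 at 4 wk, 0.97 at 6 wk and 0.86 at 8 wk. For the 11 lower genes it was -0.26, -0.54 and -0.46. Since the genes were chosen by their 6 wk difference, that choice alone favours the largest median at 6 wk. At 2 wk CAC2wk against Con2wk called 3.7% of the tested genes but none of the 39, and 17 of the 39 had the 6 wk sign. With only the groups compared in the fit, the 2 wk comparison called 0 genes. The striatal and thalamic marker lists had the largest 2 wk medians of the 52 lists, at 1.1 and 0.81, and their part was not tested. The change from 4 to 6 wk called 0 genes over the whole table (1560 at an unadjusted p under 0.05). Of the 39 genes 13 had an unadjusted p under 0.05, which their choice by the 6 wk difference also favours.

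**Figure D4:**
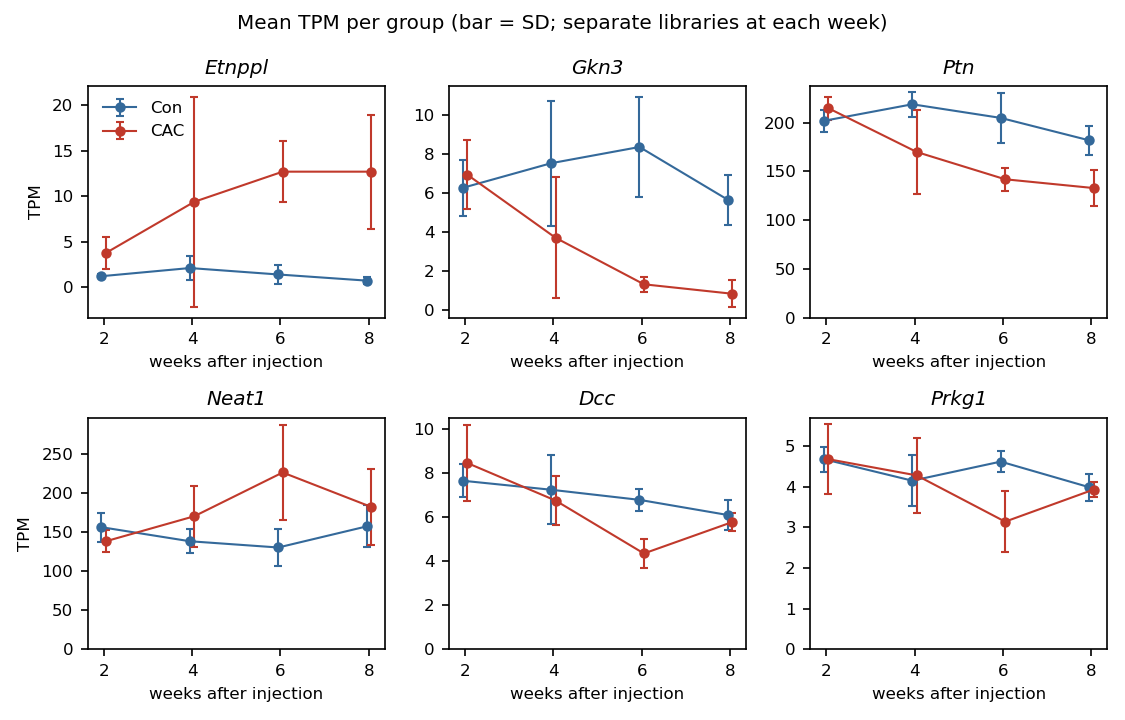
Mean TPM with SD (bars) of 6 genes in CAC (red) and Con (blue) at 2, 4, 6 and 8 wk after injection, each point 4 to 7 separate libraries. Etnppl and Gkn3 are apart from Con at 6 and 8 wk, with a wide spread in CAC at 4 wk, while Dcc and Prkg1 are apart at 6 wk and close at 8 wk.

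The CAC4wk libraries differed among themselves. In CAC4wk replicate 4, 37 of the 39 genes lay beyond the range of the 5 Con4wk libraries in the direction of their 6 wk difference, and in replicate 2 there were 31, while replicates 1, 3 and 5 had 14, 10 and 7. Over all tested genes the same share was 37.9% in replicate 4 and 16.2 to 35.3% in the others, against 94.9% of the 39 genes in replicate 4. Replicate 4 held 29.3 TPM of Etnppl on 1579 reads and no read of Gkn3, and replicate 5 held 1.26 TPM of Etnppl and 8.54 of Gkn3. At 8 wk, 6 of the 7 CAC8wk libraries had 32 to 36 of the 39 genes beyond the Con8wk range, and replicate 3 had 14. Over all tested genes the share was 36.1 to 48.1% in the 6 libraries and 28.6% in replicate 3, against 35.9% of the 39 genes in replicate 3. That library held 0.995 TPM of Etnppl where the other 6 held 10.1 to 20.1. The NCAC8wk libraries had 3 to 6 such genes, with 16.1 to 28.1% over all tested genes, apart from replicate 3 with 22, in which 45.5% of all tested genes lay beyond the range in their 6 wk direction. NCAC4wk libraries had 3 to 8 (7.69 to 20.5% of the 39 genes, against 15.3 to 24.2% of all tested genes). CAC2wk libraries had 6 to 12 (15.4 to 30.8%, against 18.9 to 35.5%) and NCAC2wk libraries 3 to 12 (7.69 to 30.8%, against 16 to 36.3%).

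**Figure D5:**
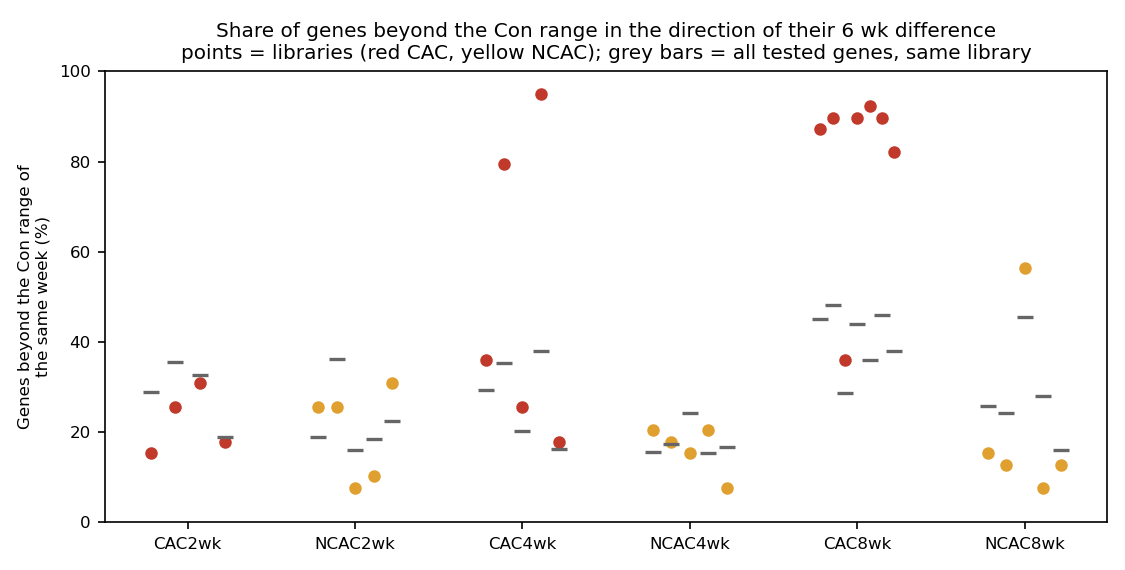
Share of the 39 genes (points, red CAC and yellow NCAC) and of all tested genes (grey bars) that lie beyond the Con range of the same week in the direction of their 6 wk difference, for each library at 2, 4 and 8 wk. CAC4wk replicates 2 and 4 and 6 of 7 CAC8wk libraries lie at 79.5 to 94.9%.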

How the data were processed

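Hippocampal RNA was sequenced from TruSeq stranded mRNA libraries on an Illumina NovaSeq, per the labels' protocols. The authors deposited 1 table of TPM for 47643 gene symbols and 60 libraries. The genome build was mm10 per the submitters' processing notes, and no source used here names the aligner or counter, or says whether counting used the strand. TPM fixes each library's total, so a rise of abundant genes lowers the others. Whole reads, within 0.02 of a read, were recovered for 24205 of 24227 genes above 0 (99.91%), and the other 22 used annotated lengths.

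The test was limma 3.58.1 (R 4.3.3) on log2(TPM + 0.5), with a variance trend and a mean for each of the 12 groups fitted over all 60 libraries, and Benjamini-Hochberg adjustment over the 15608 genes that reached 1 TPM in 4 or more libraries. The method was tested on simulated data. The 0.5 added before the log2 understates changes of low genes. Contrasts were CAC with Con at each time, both tumours with each other and NCAC with Con at 6 wk, and the changes of the CAC difference from 4 to 6 and 6 to 8 wk. Every called gene was named but 1, which is not reported here, with library values for the 12 largest rises and all falls. From 52 gene lists, members past the threshold were named, and some of the others. The uncalled members named were not always those with the smallest p of their list: Mdm2, Ntn1 and Fabp7, for example, were not. Members and lists were chosen with earlier results of these data known. Alternatives were 2 other pseudocounts, 2 other filters, only the groups compared, median-of-ratios scaling, no variance trend, removal of GC content and length trends (natural splines with 5 degrees of freedom, 15018 genes), voom on recovered reads, a replicate block and each library left out. The fit without 5 libraries rich in choroid plexus genes was added after seeing the data. Gene coordinates are from GENCODE M21 on GRCm38. Numpy 2.4.6, pandas 2.3.3 and matplotlib 3.10.9 were used.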

Additional observations from a re-analysis of the deposited data

Results flagged for a closer look

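Within groups of 4 to 7 libraries, 112 sets of values were checked for a library whose gap to its nearest neighbour was large for the range of its group, and 9 were found, where chance alone flags about 1 in 20. In CAC6wk, replicate 1 held 33.2 TPM of Cdkn1a where the others held 15 to 19.2, and 94.5 TPM of Map7 where the others held 80.3 to 84.4. Replicate 5 of CAC6wk held 2.02 TPM of Gkn3 where the others held 1.07 to 1.26. In Con6wk, replicate 1 held 1.83 TPM of Wnt10b (others 0.533 to 0.819), and its blood leukocyte markers summed to 65.0 TPM (others 23.3 to 33.0). Replicate 2 of Con6wk held 43.7 TPM of Ly6c1 (others 46.5 to 47.0), and in replicate 5 the CA2 and CA3 markers summed to 794 TPM (others 632 to 678).

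At 8 wk, CAC8wk replicate 3 had 14 of the 39 genes beyond the Con8wk range in the 6 wk direction (others 32 to 36), and NCAC8wk replicate 3 had 22 (others 3 to 6).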

How the results depend on the processing

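Of 812 refits of single called genes, 0 reversed and 273 missed the threshold. Where libraries were only left out, the sign could not reverse for the 35 genes without overlap. The 28 higher genes became 53 and the 11 lower genes 57 without the GC content and length trends, where all differences refer to 15018 genes. With only the groups compared the lower genes were 2, and without the 5 libraries rich in choroid plexus genes they were 66. Leaving out 1 library gave 7 to 52 higher and 2 to 33 lower genes. CAC6wk against NCAC6wk called 276 genes, but 96 with only the groups compared. CAC8wk against Con8wk called 2256 and, with median-of-ratios scaling, 1441. CAC4wk against Con4wk called 125, with 37 with only the groups compared and 201 with median-of-ratios scaling, and CAC2wk against Con2wk called 577 and then 0 with only the groups compared. The cause was not tested.

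Replicate numbers did not pair the libraries: same-numbered CAC6wk and Con6wk libraries had correlations of their deviations from -0.232 to 0.093, and 1 of 5 correlated best with its own number. With the replicate number as a block 22 genes were higher and 8 lower, and 25 of the 39 were called. The block gave 133 genes for CAC6wk against NCAC6wk, 794 at 8 wk, 137 at 4 wk and 273 at 2 wk.

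Depth limits Scgb3a1, Bcl3 and Lrg1, with 0 to 60, 2 to 42 and 3 to 54 reads per library. Scaling moved the median of all genes by less than 0.1.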

Other observations

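Choroid plexus genes did not keep 1 ratio across libraries. In 56 of the 60 libraries the ratio of Ttr, the transthyretin of the plexus epithelium, to Folr1, its folate receptor, was 49.7 to 386 on the TPM scale. In the other 4, from both tumour groups, it was 2.56 to 7.83. In CAC6wk replicate 5, Ttr was 186 TPM and Folr1 72.4, and in NCAC6wk replicate 3 they were 241 and 68.5, the ion channel Kcnj13 was 83.7 and 95.2, and Aqp1, a water channel of the epithelium, 32.2 and 40.9. CAC6wk replicate 2, with 8500 TPM of Ttr, held 38.8 of Folr1, 40.0 of Kcnj13 and 22.3 of Aqp1.

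The 11 striatal markers summed to 156 to 181 TPM in CAC6wk and 139 to 152 in Con6wk, without overlap. In NCAC6wk they summed to 153 to 176 TPM, also above Con6wk, and the median was 166 in both tumour groups. Ppp1r1b, a signalling protein of striatal neurons that other brain regions also express, averaged 61.9 TPM in CAC6wk and 42.5 in Con6wk. The dopamine receptor Drd2 averaged 2.86 in CAC6wk and in Con6wk. Taken singly, 5 of the 11 markers had positive differences between CAC6wk and Con6wk and 6 negative, and none was called. The share of positive differences over all tested genes was 55.2%. In 1 of the 11 the groups did not overlap, against 2.62% of all tested genes, so the summed level does not describe most members.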
